A study of Mus musculus with 14 samples.

Results

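The genes of MHC class II antigen presentation were followed across 14 RNA-seq libraries of sorted mouse lung cells. They are 10 of the 43432 genes in the deposited table and were chosen by symbol: the classical chains H2-Aa, H2-Ab1 and H2-Eb1, the invariant chain gene Cd74, the transactivator gene Ciita, the DM genes H2-DMa, H2-DMb1 and H2-DMb2, and the DO genes H2-Oa and H2-Ob. All 10 were in the table, and all 10 passed the filter on low values, which asked for 10 or more normalized counts in 2 or more libraries. The lungs were those of 129S1 males, aged 10 to 12 weeks, which had bleomycin (labelled 3 U/k), a DNA-damaging drug that injures the lung and leads to fibrosis, or water placed in the trachea. Every library was of cells positive for SiglecF and CD11c, a pair of surface proteins that marks alveolar macrophages, sorted by an antibody to MHC class II (MHCII). The groups were MHCII-low cells of water-treated mice (control, 2 libraries, labelled replicates 1 and 3), MHCII-low cells 2 weeks and 4 weeks after bleomycin (3 libraries each) and MHCII-high cells at the same times (3 libraries each). MHCII-high cells of control mice were not analysed here, so each comparison with control is between MHCII-low cells. Nothing in the labels says whether replicates are separate animals or pools, so p-values measure the spread between these libraries, which may be technical.

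Class II molecules carry peptides from endocytosed proteins to the cell surface, where CD4 T cells read them. An alpha and a beta chain pair in the endoplasmic reticulum with the invariant chain, which guides them to the endosome and is cut there by cathepsins until a short fragment is left in the groove. DM exchanges that fragment for peptides, and DO restrains DM. CIITA, recruited to promoters by a complex of RFX, CREB and NF-Y proteins, is known to switch on the classical chain genes and Cd74. Dendritic cells and B cells carry much class II protein, and resident alveolar macrophages of the unchallenged lung carry little.

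The libraries held 15106415 to 88059631 reads, recovered from the deposited values, so 3 reads, taken as the floor, were worth 1.17 to 6.71 normalized counts. Mitochondrial ribosomal RNA took 3.12% to 28.99% of the reads. It did not overlap between 2-week MHCII-high libraries (22.51% to 26.25%) and 2-week MHCII-low libraries (3.42% to 18.32%), nor between the latter and control (21.67% and 24.08%). With this share as a covariate, 6 members were called at 2 weeks between MHCII-high and MHCII-low cells, without H2-DMb1 and H2-DMb2, where 1.19% of all genes were, and 5 between 2-week MHCII-low cells and control, where 1.22% were. Siglecf, the gene of the sort marker, was read at 3056.4 to 4358.1 normalized counts in the MHCII-high libraries and at 6460.9 to 9550.6 in the others. Itgax, which encodes CD11c, was at 25185 to 44133.2 in all 14.

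The class II genes lie together, with 8 of the 10 on chromosome 17 between positions 34092340 and 34316199 (mm10). From the lower coordinate up, the protein-coding genes are H2-Oa, H2-DMa, H2-DMb2, H2-DMb1, H2-Ob, H2-Ab1, H2-Aa (34282744 to 34287827, the only one on the minus strand) and H2-Eb1 (34305877 to 34316199). Ciita (10488178 to 10527564 on chromosome 16) and Cd74 lie elsewhere. RefSeq promoter windows (GRCm38.p6, the same build, 250 bases before to 50 after a start site) were at the deposited gene for 6 members. A window counted as at the gene if it overlapped the gene or the 1000 bases before it. A pair of motifs was searched in them on both strands, an X-type box, CNNNNAAC, followed after 22 to 28 bases by a Y-type box, TGATTGG. The X box is known as the docking place of RFX and the Y box as that of NF-Y. The stretches are shown because all 6 members hold the pair, on the strand of the gene, although the genes behave differently below. Capitals mark the boxes.
H2-Aa: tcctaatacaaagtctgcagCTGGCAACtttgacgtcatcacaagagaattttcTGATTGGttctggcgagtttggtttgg
H2-Eb1: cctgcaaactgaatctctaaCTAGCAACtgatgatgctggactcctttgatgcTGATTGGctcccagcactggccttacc
H2-DMb1: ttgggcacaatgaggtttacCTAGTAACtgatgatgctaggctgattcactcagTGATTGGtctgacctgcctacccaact
H2-DMb2: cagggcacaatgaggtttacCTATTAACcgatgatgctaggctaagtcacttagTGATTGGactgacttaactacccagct
H2-Oa: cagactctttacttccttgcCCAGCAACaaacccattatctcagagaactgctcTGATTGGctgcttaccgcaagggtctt
H2-Ob: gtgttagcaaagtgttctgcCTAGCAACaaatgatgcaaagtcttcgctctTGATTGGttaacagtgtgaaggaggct

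These stretches lie at chr17:34287847-34287927 (minus strand) for H2-Aa and, on the plus strand, at chr17:34305753-34305832 for H2-Eb1, chr17:34153074-34153154 for H2-DMb1, chr17:34145103-34145183 for H2-DMb2, chr17:34092280-34092360 for H2-Oa and chr17:34238795-34238872 for H2-Ob. The Y-type box began 45 to 92 bases before the RefSeq start site, which need not be the start of the deposited gene. The stretches of H2-DMb1 and H2-DMb2 lie inside the deposited genes, which start at 34153072 and 34143307. That of H2-Oa spans the deposited start, 34092340. The gap between the boxes was 26 bases in H2-Aa, H2-DMb1, H2-DMb2 and H2-Oa, 25 in H2-Eb1 and 23 in H2-Ob. H2-DMb1 and H2-DMb2, which are neighbouring copies, matched at 69 of 81 positions of the printed stretch (85.2%). Over all 32851 RefSeq windows of 300 bases, 67 held the pair on either strand (0.204%), while the X-type box alone was in 81.6% and the Y-type box alone in 7.82%. The motif letters were set after the members' promoters had been read, so the match is a description and not a test.

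Levels per exon length put the invariant chain far above its partners in the MHCII-high cells. Per kb of exon, the mean of the 2-week MHCII-high libraries was 80549.6 normalized counts ± 20618.5 (SD, n = 3) for Cd74, 17065 ± 3073 for H2-Aa, 12795 ± 2701 for H2-Ab1 and 6742 ± 311 for H2-Eb1. H2-DMa, at 4634.5 ± 846, and H2-DMb1, at 4004 ± 826, came next, and their SDs overlap. H2-DMb2, at 642.5 ± 229, and Ciita, at 352 ± 21.1, were lower, and H2-Oa (121 ± 73.5) and H2-Ob (84.3 ± 25.7) were the lowest and overlap. In the control libraries the order was another one: H2-DMa led at 3140.2 ± 802.5 (n = 2), before H2-DMb1 at 1014 ± 42 and Cd74 at 839 ± 170, and H2-Aa and H2-Ab1 were at 70.6 ± 3.43 and 66.5 ± 7.86.

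**Figure D1:**
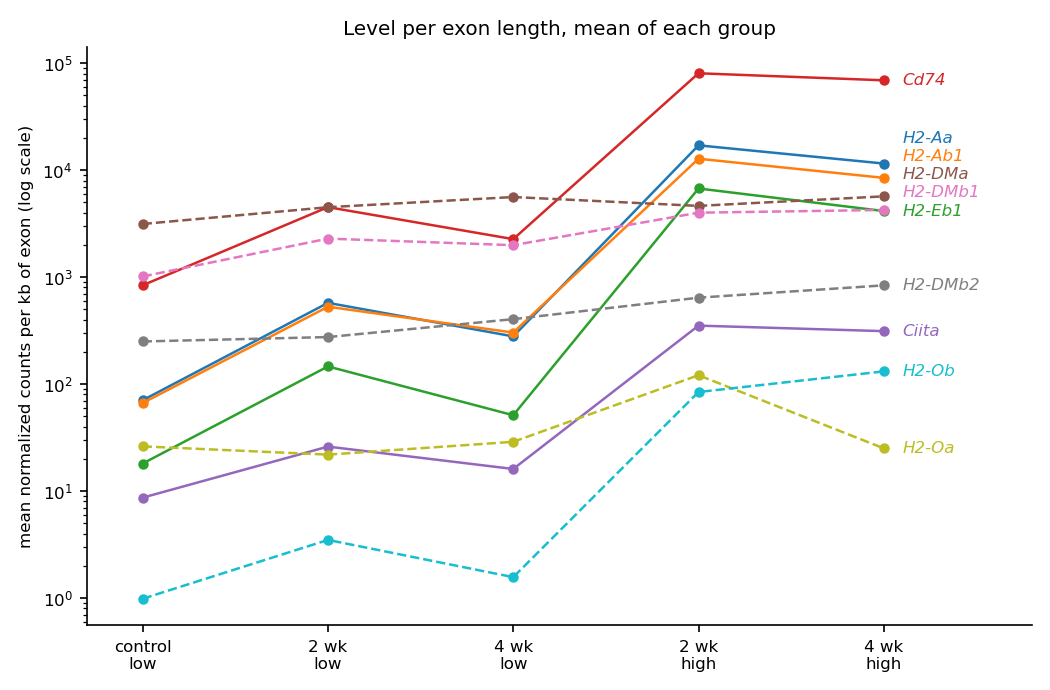
Mean normalized counts per kb of exon (log scale) of each member in the 5 groups; lines join the means of 1 gene and stand for no time course. Cd74 runs from 839 in control to 80549.6 in 2-week MHCII-high cells, while H2-DMa stays between 3140.2 and 5691 in all 5 groups.

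Between MHCII-high and MHCII-low cells of bleomycin-treated lungs, the members fell into those that differed by over 10-fold, those that differed by about 2-fold and those with no call. At 2 weeks 8 of 10 members were higher in MHCII-high cells, where 2.29% of the 17390 genes tested were called higher and 0.581% lower (2.87% in either direction). At 4 weeks 8 were higher, where 1.96% of all genes were and 0.535% were lower (2.5% in either direction). In the mean of both times 8 were higher, where 5% of all genes were and 2.21% were lower (7.21% in either direction). Without 2-week MHCII-low replicate 2 or without 2-week MHCII-high replicate 2, 5 members were called at 2 weeks, with H2-DMb1, H2-DMb2 and H2-Ob lost. In those fits 1.97% and 1.18% of all genes tested were called in either direction. Libraries did not overlap for 9 members at 2 weeks, where 12.9% of all genes had every MHCII-high library above every MHCII-low one, and for 8 at 4 weeks, where 8.26% did. The members' median log2 fold change was 4.3 in the mean of both times, beside 0.02 for all genes tested. No member was called lower. The sort used MHCII protein, so for the chain genes this contrast checks the labels and is no finding. In bulk libraries, fewer cells of a type and less RNA per cell cannot be told apart. The tests were limma's on log2(normalized count + 1), with p-values adjusted by the Benjamini-Hochberg method over all genes tested and called under 0.05. Fold changes on this scale understate the change of low genes.

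H2-Aa, the alpha chain of the I-A molecule, was read at 27604.4, 29833 and 38503.3 normalized counts in replicates 1, 2 and 3 of the 2-week MHCII-high cells, and at 917.3, 503.2 and 1810.4 in the MHCII-low cells. The 4-week values were 23261.9, 16282.6 and 25311.3 in MHCII-high and 409.9, 381.4 and 778.3 in MHCII-low cells. The lowest MHCII-high library was thus several-fold above the highest MHCII-low one, and the groups did not overlap. The log2 fold change was 5.07 ± 0.33 (SE) at 2 weeks and 5.42 ± 0.33 at 4 weeks, with adjusted p-values of 4.67e-09 and 3.65e-09.

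H2-Ab1, the beta chain that pairs with H2-Aa, followed it closely. Its MHCII-high libraries held 17713.1, 19140.2 and 25983.9 normalized counts at 2 weeks and 13417.7, 10624.9 and 17569.2 at 4 weeks, and its highest MHCII-low value was 1276.3. Its log2 fold change was 4.72 at 2 weeks and 4.81 at 4 weeks. Per exon length the ratio of H2-Aa to H2-Ab1 was 1.26 to 1.51 in the 6 MHCII-high libraries and 0.629 to 1.24 in the 8 MHCII-low and control libraries, so the ranges do not overlap.

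H2-Eb1, the beta chain of the I-E molecule, had a log2 fold change of 6.42 ± 0.47 in the mean of both times, and H2-Ob one of 6.29 ± 0.85. These were the largest of the 10, and their SEs overlap. H2-Eb1 was at 7598.5, 8015.7 and 8333.5 normalized counts in the MHCII-high cells of the 2-week lungs and at 143.2, 55.7 and 320.5 in the 2-week MHCII-low libraries. In the 4-week libraries it was at 6089.7, 3012.4 and 5630.4 against 48.9, 6.9 and 125.8, the lowest of these resting on 7 reads. Relative to H2-Ab1, and per exon length, H2-Eb1 was at 0.392 to 0.628 in the MHCII-high libraries and at 0.0282 to 0.347 in the others. The partner alpha chain is listed as a pseudogene, H2-Ea-ps, and was listed at 0 in 13 libraries and at 3.1 normalized counts (2 reads) in 4-week MHCII-high replicate 2. H2-Eb2, a further beta chain gene of the cluster, whose promoter window also holds the motif pair, was at 26.7 to 154.6 normalized counts in the 6 MHCII-high libraries and at 0 to 1.1 in the 8 others.

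Cd74, the invariant chain, was at 94551.5, 99133.3 and 147040.2 normalized counts in the 2-week MHCII-high libraries, against 7247, 2915.6 and 8921.6 in the MHCII-low ones. By 4 weeks the values were 103125, 60414.1 and 129257.3 against 2918.3, 2292.2 and 4372.3. Every MHCII-high library was above every MHCII-low library, and the log2 fold change was 4.28 ± 0.33 at 2 weeks and 4.92 ± 0.33 at 4 weeks. Per exon length there were 4.42 to 6.79 Cd74 counts for each of H2-Aa in the MHCII-high libraries and 6.55 to 13.1 in the others. The ranges of this ratio overlap, with 2-week MHCII-low replicate 3 at 6.55 and 4-week MHCII-high replicate 3 at 6.79.

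Ciita, which encodes the transactivator, was at 1971.7, 1821.9 and 1755 normalized counts in the MHCII-high cells of the 2-week lungs and at 96.2, 141.7 and 172.3 in the MHCII-low ones. The 4-week libraries held 1319.5, 1396.4 and 2207.9 against 73.8, 93.1 and 86.4. The groups did not overlap at either time. The log2 fold change was 3.79 ± 0.33 at 2 weeks and 4.23 ± 0.33 at 4 weeks, with adjusted p-values of 4.1e-07 and 4.99e-08. Per exon length there were 32.1 to 61.5 counts of H2-Aa for each of Ciita in the MHCII-high libraries and 7.31 to 29.5 in the others.

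**Figure D2:**
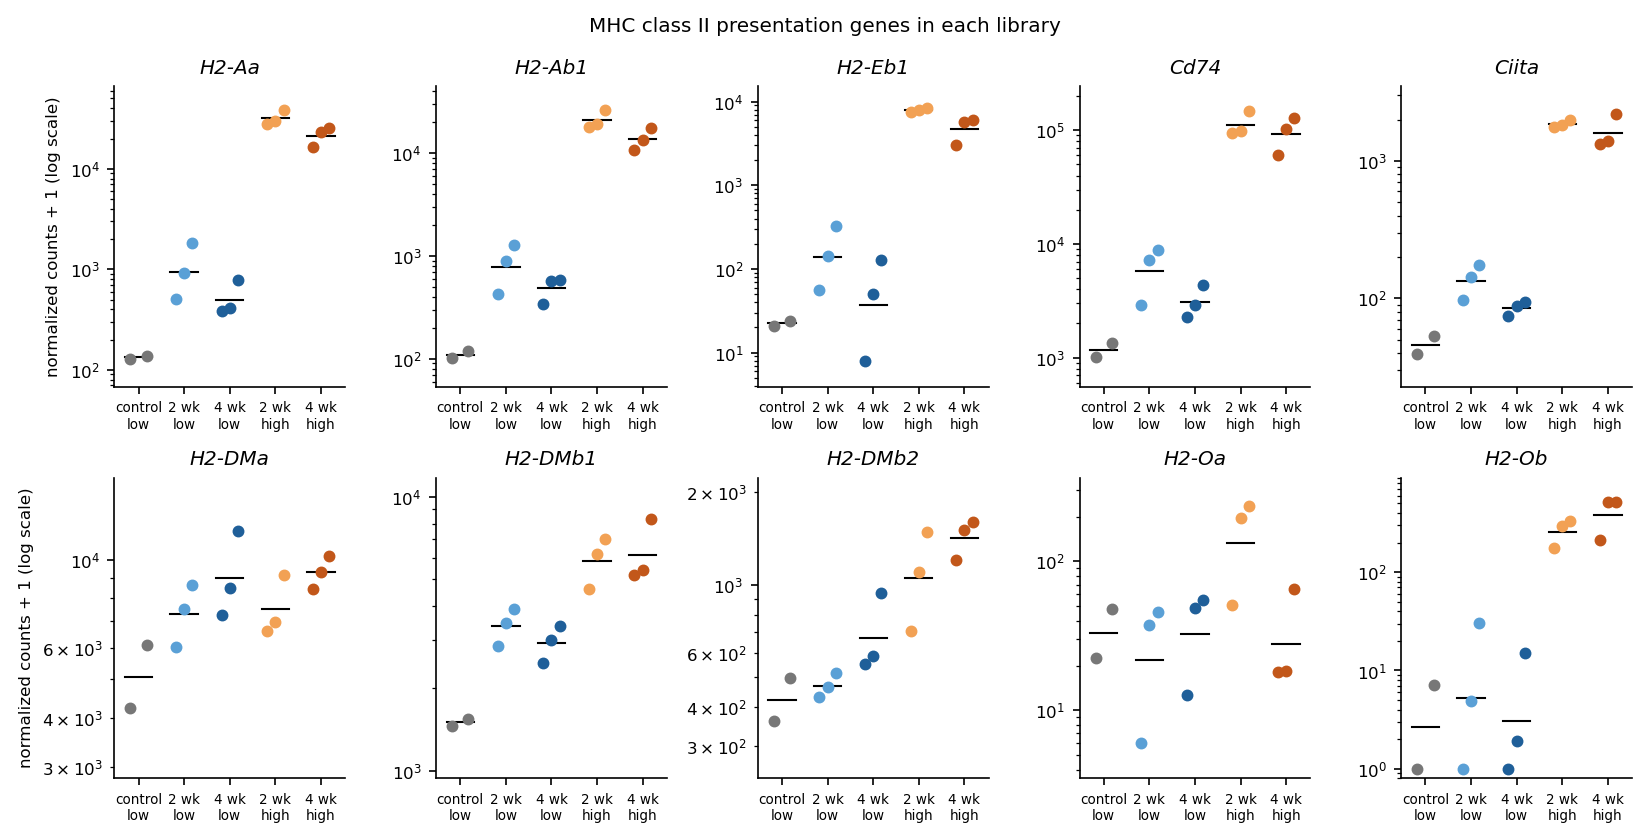
Normalized counts + 1 (log scale) of the 10 members; each point is 1 library, and the bar is the mean on the log scale of control (n = 2), 2-week and 4-week MHCII-low and 2-week and 4-week MHCII-high libraries (n = 3 each). The upper 5 genes separate MHCII-high from MHCII-low libraries, H2-DMa does not, and H2-Oa is high in 2-week MHCII-high replicates 2 and 3, at 233.5 and 193.7.

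The DM genes did not share this pattern. H2-DMa, the alpha chain of the peptide exchanger, was at 6994, 6627.2 and 9194.5 normalized counts in the MHCII-high cells of the 2-week lungs and at 7506.6, 6022.4 and 8651.2 in the MHCII-low ones. At 4 weeks H2-DMa was at 9323.9, 8473.9 and 10220.2 against 11819.7, 7270.7 and 8514.4. The groups overlapped at both times, and the log2 fold change was 0.04 (95% interval -0.37 to 0.45) at 2 weeks and 0.05 (-0.36 to 0.46) at 4 weeks, with a sign that turned under 4 of 19 other settings at each time. The MHCII-low mean of H2-DMa was 97.2% of the MHCII-high mean at 2 weeks and 98.5% at 4 weeks, against 3.37% and 2.42% for H2-Aa.

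H2-DMb1, a beta chain of DM, was at 4619.9, 6179.1 and 7038.1 normalized counts in the MHCII-high cells of the 2-week lungs and at 3461.3, 2850.3 and 3898.3 in the MHCII-low ones. At 4 weeks the values were 5196.8, 5414.5 and 8305.6 against 3373.6, 2479.5 and 3007.6. There was no overlap at either time, and the log2 fold change in the mean of both times was 0.93 ± 0.14 (adjusted p = 0.000184). H2-DMb2, the other beta chain, was at 1488.5, 1101 and 706.3 against 429.6, 515.9 and 465.8 at 2 weeks, and at 1502.6, 1592.5 and 1202.5 against 938.2, 550 and 587.5 at 4 weeks. Its mean log2 fold change was 1.12 ± 0.2 (adjusted p = 0.000767), again with no overlap. These mean calls held under all 25 other settings, but the calls at single times did not: H2-DMb1 at 2 weeks lost its call under 9 of 19 settings, and H2-DMb2 under 8 at 2 weeks and 10 at 4 weeks. Leaving out 1 library was enough in each case, for H2-DMb1 MHCII-low replicate 1 or 2 or MHCII-high replicate 2 or 3, for H2-DMb2 at 2 weeks any MHCII-low replicate or MHCII-high replicate 1 or 2, and for H2-DMb2 at 4 weeks MHCII-low replicate 2 or 3 or MHCII-high replicate 1 or 2. Per exon length, H2-DMa over the sum of both beta chains was 0.841 to 1.3 in the MHCII-high libraries and 1.65 to 2.78 in the others, with no overlap. H2-DMb1 and H2-DMb2 are alike in sequence, and how reads matching both were counted is not given in the sources used here, so the split between them is uncertain.

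Of the DO genes H2-Ob was called and H2-Oa was not, and the difference between the genes was not tested. H2-Ob, the beta chain of the DM inhibitor, was at 292.3, 330.1 and 174.6 normalized counts in the MHCII-high cells of the 2-week lungs and at 29.1, 0 and 3.9 in the MHCII-low ones. Its 4-week values were 516.1, 514.6 and 211.8 against 0.9, 0 and 13.9. No MHCII-low library reached the lowest MHCII-high one, and the mean log2 fold change was 6.29 ± 0.85 (adjusted p = 4.16e-05), a value that moved between 3.24 and 7.63 with the settings and rests on MHCII-low libraries with at most 13 reads each. H2-Oa, the alpha chain, was at 49.9, 233.5 and 193.7 in 2-week MHCII-high cells and at 44.7, 36.6 and 5 in the MHCII-low ones. In the 4-week cells it was at 64.5, 17.3 and 17 against 54, 48 and 11.7. H2-Oa was not called at either time, with a log2 fold change of 2.61 (95% interval 0.63 to 4.58, adjusted p = 0.166) at 2 weeks and of -0.22 (-2.2 to 1.75, adjusted p = 0.947) at 4 weeks. The difference between those values was -2.83 (-5.62 to -0.03, adjusted p = 0.866) and was not called.

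**Figure D3:**
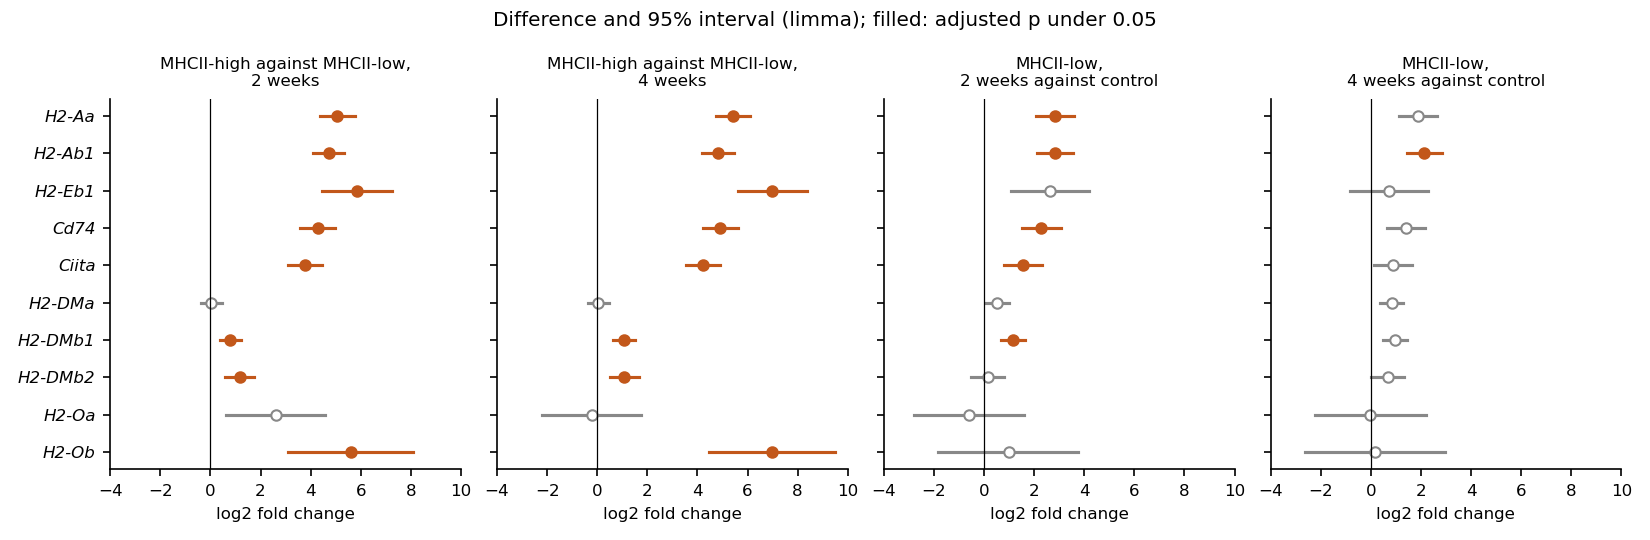
Log2 fold change and 95% interval of each member in 4 comparisons (limma); filled points passed an adjusted p of 0.05. For MHCII-high against MHCII-low, 8 points are filled at each time and H2-DMa sits at 0.04 and 0.05; against control, 5 points are filled at 2 weeks and 1 at 4 weeks.

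Markers of other cells that carry class II were also read in the MHCII-high libraries. Of 8 dendritic cell markers 6 were called higher in the mean of both times, and their sum was 969.6 to 2176 normalized counts in MHCII-high and 90.6 to 310 in the other libraries. Flt3, the dendritic cell growth factor receptor, was at 91.7 to 280.8 in MHCII-high libraries, at 17.9 in 2-week MHCII-low replicate 1 and at 0 to 1.7 in the other 7. Of 8 B cell markers 7 were higher and 1, Cd22, was lower. Their sum without Cd22, left out after its values were seen because it outweighs the rest in every library, was 1116.1 to 4058.9 in MHCII-high libraries and 55.4 to 228.1 in the others except 4-week MHCII-low replicate 1, which had 2202.1, of which 2126.7 were Ighm. With Cd22 the sums overlapped, at 10326.1 to 12899.9 and 9832.3 to 14634.1. Pax5, the B cell master regulator, was at 30.4 to 70.4 in MHCII-high libraries and at 0 in 7 of the 8 others, and all 8 B cell markers were above 0 in every MHCII-high library.

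Macrophage and epithelial markers moved as well. Of 8 markers of monocyte-derived macrophages 6 were higher, with sums of 29549.3 to 62448.2 in MHCII-high and 13372.9 to 27824.6 in the other libraries. Of 7 markers of alveolar type 2 cells 4 were higher, with sums of 8667.3 to 16898.6 and 5226.6 to 9649.3. Of 8 markers of resident alveolar macrophages 6 were lower, with sums of 236827.2 to 304429.6 and 243446.7 to 427824.5, and 1 of 5 T and NK cell markers tested was higher. None of the 5 neutrophil and 7 fibroblast and endothelium markers tested was called. The part of these cells in the class II values was not tested.

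**Figure D4:**
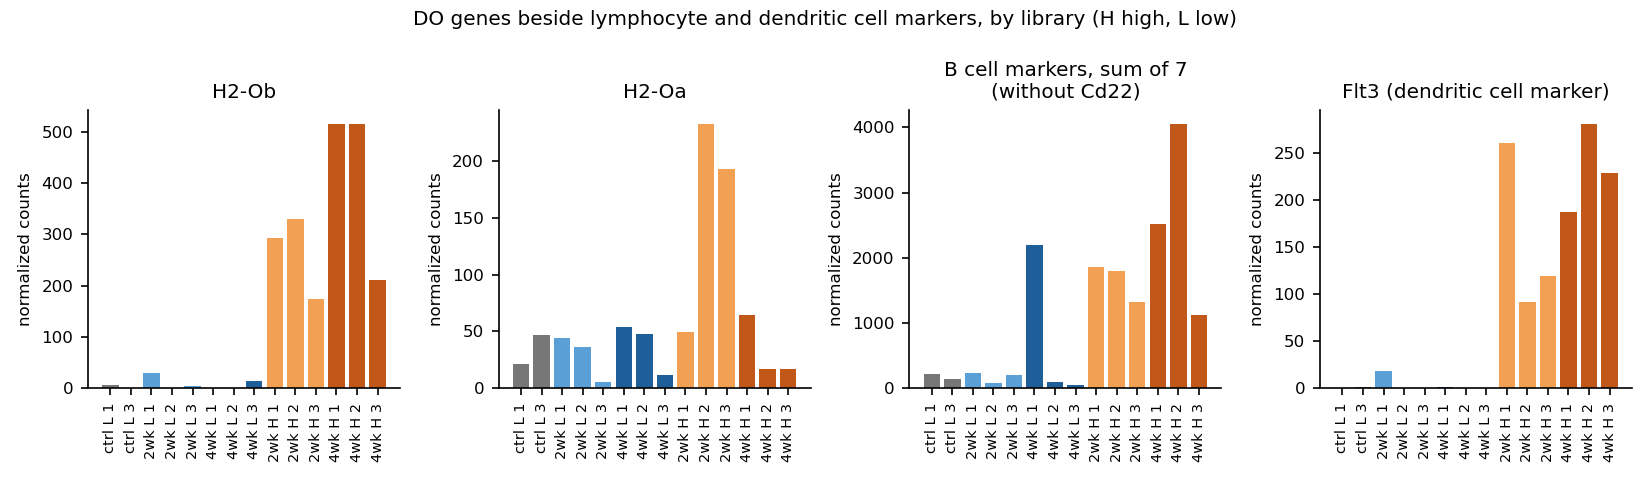
Normalized counts in each of the 14 libraries of H2-Ob, H2-Oa, the summed B cell markers without Cd22, and Flt3; bars start at 0 (H, MHCII-high; L, MHCII-low; ctrl, control). H2-Ob is at 174.6 to 516.1 in the MHCII-high libraries and at 0 to 29.1 in the others, and the B cell sum of 4-week MHCII-low replicate 1, at 2202.1, stands above the other MHCII-low libraries.

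Most genes that act with the class II genes were not called between MHCII-high and MHCII-low cells. Of the 7 enhanceosome genes, which encode the RFX, CREB1 and NF-Y proteins, none was called in the mean of both times, and their median log2 fold change was 0.2. Rfx5 differed by 0.33 (95% interval -0.15 to 0.81), Creb1 by 0.17 (-0.06 to 0.4) and Nfya by -0.19 (-0.47 to 0.09). Ciita, in the same comparison, differed by 4.01 (3.53 to 4.49). Of 9 genes tested on the route from interferon-gamma to Ciita, 1 was called higher: Jak2, a kinase of the receptor, at 0.44 ± 0.13 (adjusted p = 0.0394), a call lost under 12 of 25 other settings. The receptor gene Ifngr1 differed by 0.34 (adjusted p = 0.0896) and the transcription factor gene Spi1 by -0.42 (adjusted p = 0.0564). Irf1, a transcription factor gene of the interferon response, differed by 0 (95% interval -0.39 to 0.39).

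Genes of endosomal processing and class II turnover behaved alike in this respect. Of 10 processing genes 2 were higher, the protease genes Ctsh at 0.43 ± 0.11 (adjusted p = 0.0212) and Lgmn at 0.47 ± 0.13 (adjusted p = 0.031), and these calls were lost under 7 and 10 of 25 other settings. Ctsz, a cathepsin gene, differed by -0.35 (adjusted p = 0.0778). March1, which encodes the ubiquitin ligase that removes class II from the surface, differed by 0.02 (95% interval -0.24 to 0.27), and of the 3 turnover genes none was called. On chromosome 17, 12 other genes lie within the class II interval when it is extended to H2-Ea-ps, of which 9 were tested. In the mean of both times 2 of these were higher, H2-Eb2 (adjusted p = 3.47e-05) and the long noncoding RNA gene Gm20513 (adjusted p = 0.00376). The class I peptide transporter gene Tap1, inside the same interval, differed by 0.47 ± 0.17 (adjusted p = 0.101), the proteasome gene Psmb8 by -0.15 and the chromatin gene Brd2 by -0.02.

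**Figure D5:**
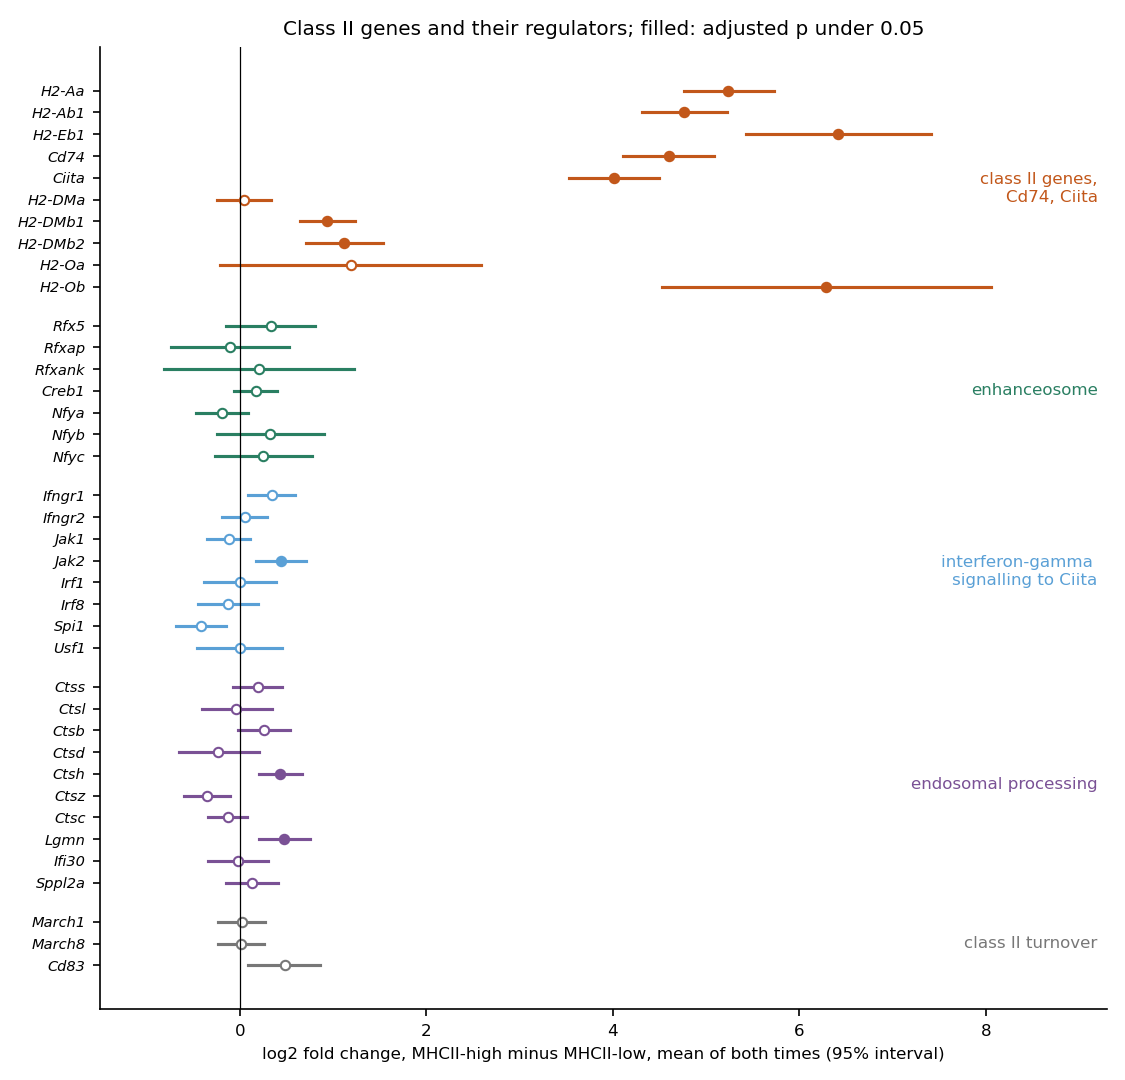
Log2 fold change, MHCII-high minus MHCII-low, mean of both times, with 95% intervals (limma), for the 10 members and 28 of the 29 tested genes of 4 pathway lists; filled points passed an adjusted p of 0.05. The 28 list genes drawn lie within 0.5 of 0 on the log2 scale, whereas 6 members lie at 4.01 or above.

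In MHCII-low cells, some members differed between bleomycin-treated and control lungs. At 2 weeks 5 of 10 members were higher than in control, where 1.48% of all genes tested were called higher (1.91% in either direction): H2-Aa, H2-Ab1, H2-DMb1, Cd74 and Ciita. The members' median log2 fold change was 1.35, beside -0.09 for all genes tested. For 6 members every 2-week MHCII-low library was above both controls, as for 13.7% of all genes. H2-Aa was at 127.8 and 136.9 normalized counts in the control libraries and, as above, at 503.2 to 1810.4 at 2 weeks, a log2 fold change of 2.82 ± 0.37 (adjusted p = 8.42e-05). H2-Ab1 was at 99.7 and 117.9 in control and at 897.2, 422 and 1276.3 at 2 weeks, a change of 2.84 ± 0.34 (adjusted p = 2.97e-05). Every 2-week library of this pair was several-fold above both controls.

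Cd74 was at 1012.8 and 1352.5 in control, and its log2 fold change at 2 weeks was 2.29 ± 0.37 (adjusted p = 0.000905). Ciita was at 38.6 and 52.5 in control, and its change was 1.54 ± 0.36 (adjusted p = 0.0271). H2-DMb1 was at 1550 and 1461.8 in control and changed by 1.16 ± 0.23 (adjusted p = 0.00573). Their 2-week libraries all lay above the controls. Without control replicate 1 or without control replicate 3, 3 members were called, and H2-DMb1 and Ciita were lost. In those fits 0.799% and 0.73% of all genes tested were called in either direction. The call of Ciita was also lost without 2-week MHCII-low replicate 2 or 3.

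H2-Eb1 was at 23 and 19.8 in control, and all 3 of its 2-week values were higher. Its log2 fold change of 2.63 ± 0.75 did not pass (adjusted p = 0.0846), but it was called under 4 of 17 other settings, among them without 2-week MHCII-low replicate 2, with edgeR and with DESeq2. H2-DMa was at 6084.2 and 4221.9 in control, and one of its 2-week values, 6022.4, fell between them. Its difference was 0.53 (95% interval 0.07 to 0.99, adjusted p = 0.301). H2-DMb2, H2-Oa and H2-Ob differed by 0.15, -0.6 and 0.98, with intervals that include 0.

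At 4 weeks 1 of 10 members was called higher than in control, where 0.0345% of all genes tested were (0.046%, or 8 genes, in either direction). It was H2-Ab1, at 569.4, 338.2 and 581.1 normalized counts and a log2 fold change of 2.14 ± 0.34 (adjusted p = 0.015). This call was lost without control replicate 1, control replicate 3, 4-week MHCII-low replicate 1 or 4-week MHCII-low replicate 3. The other classical chains and their escort missed the threshold, with H2-Aa at 1.9 (95% interval 1.13 to 2.66, adjusted p = 0.0613), H2-Eb1 at 0.72 (-0.84 to 2.28, adjusted p = 0.945) and Cd74 at 1.4 (0.63 to 2.16, adjusted p = 0.307). H2-Eb1 was below both controls in 4-week MHCII-low replicate 2, at 6.9, and its difference changed sign under 2 of 17 other settings. For 7 members every 4-week MHCII-low library was above both controls, as for 11.4% of all genes.

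Other lists moved in the same MHCII-low cells. At 2 weeks 5 of 10 endosomal processing genes were higher than in control, among them the cathepsin genes Ctsb (1.05 ± 0.21, adjusted p = 0.00807) and Ctsl (1.33 ± 0.28, adjusted p = 0.0118) and Lgmn (0.91 ± 0.21, adjusted p = 0.0227). March1 was higher too, with a mean of 4717 normalized counts ± 419 (n = 3) against 2592 ± 60.0 (n = 2) and a log2 fold change of 0.86 ± 0.2 (adjusted p = 0.0205). Each of these 4 calls was lost in 3 to 8 of 17 other settings. No enhanceosome or interferon-gamma gene was called at 2 weeks, and none of the 4 lists had a call at 4 weeks.

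Of the monocyte-derived macrophage markers 5 of 8 were higher at 2 weeks, with sums of 25331.4 to 27824.6 normalized counts against 13372.9 to 16484.6 in control. At 4 weeks the sums were 15117.8 to 18934. C1qc, a complement gene of such cells, was at 165.6, 60.5 and 384.3 in 2-week MHCII-low cells and at 11.3 and 12.9 in control. The library highest in C1qc, replicate 3, was also highest in H2-Aa, and replicate 2 was lowest in both. The summed markers were lowest in replicate 2 too, but highest in replicate 1, at 27824.6 against 26924.3 in replicate 3. C1qc was named after its values were seen, and its profile was the nearest to H2-Aa outside the members. Of the other lists, 2 of 7 alveolar type 2 cell markers were higher at 2 weeks. The surfactant gene Sftpc was at 504.8 to 1763.1 against 39.6 to 169.4 in control, and the phosphate transporter gene Slc34a2 at 270.9 to 780.9 against 95.4 to 117.1. Without a call, Sftpb (456.6 against 617.6) and Sftpd (14.8 against 32.6) had lower means than control, and Sftpa1, Lamp3 and Abca3 higher ones. Of 5 neutrophil markers tested 1 was higher, the receptor gene Cxcr2, at 3460.2 to 4783.6 against 583.7 to 1109.8. The mean of Csf3r was 4888 against 4969, and S100a8, S100a9 and Retnlg had higher means without a call. Of 8 resident alveolar macrophage markers 1, Car4, was higher. Col1a1, a fibroblast collagen gene, was at 82.8 to 170.7 against 10.3 to 15.2 and was not called (adjusted p = 0.384). The dendritic cell markers gave no call, with sums of 140.4 to 221.3 at 2 weeks and 295.6 to 310 in control, and the B cell markers gave none, with Pax5 at 0 in both controls and at 0, 0 and 2.2 at 2 weeks. The part of other cells in the class II values was not tested.

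As a share of the MHCII-high mean, the MHCII-low mean of the 2-week libraries was 3.37% for H2-Aa, 4.13% for H2-Ab1, 2.17% for H2-Eb1, 5.6% for Cd74 and 7.39% for Ciita. In the same libraries 8 genes outside class II that are high in MHCII-high cells, chosen after their values were seen, ran from 1.54% (Pax5) to 13.6% (Ccr2), with Cd79b at 2.48%, Flt3 at 3.8%, C1qc at 3.88%, C1qa at 4.37%, Cx3cr1 at 4.5% and C1qb at 4.96%. H2-Eb2 was at 0.57%. At 4 weeks the members stood at 2.42%, 3.58%, 1.23%, 3.27% and 5.14%, and the 8 genes ran from 0% (Pax5 and Cd79b) to 19.1% (Ccr2). As a share of the 2-week MHCII-high mean, the control mean was 0.414% for H2-Aa, 0.519% for H2-Ab1, 0.268% for H2-Eb1, 1.04% for Cd74 and 2.46% for Ciita. Among the 8 genes this control share was 12.1% for Cd79b, 10.3% for Ccr2, 3.32% for Cx3cr1 and 0% to 0.541% for the rest. Whether MHCII-high cells were carried into the MHCII-low gate was not tested.

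Between 4 and 2 weeks no member was called, in MHCII-low or in MHCII-high cells, where 0.857% and 1.07% of all genes tested were. At an unadjusted p under 0.05, 4 members differed in MHCII-low cells and 1 in MHCII-high cells. Of the 17390 genes tested, 1300 and 2426 did so. edgeR on the recovered reads called no member in either comparison, and neither did DESeq2. In MHCII-low cells the changes were -0.93 for H2-Aa (95% interval -1.61 to -0.24, adjusted p = 0.344), -0.7 for H2-Ab1 (-1.34 to -0.07), -1.91 for H2-Eb1 (-3.3 to -0.51) and -0.9 for Cd74 (-1.58 to -0.21). Without 2-week MHCII-low replicate 2, H2-Aa and Cd74 were called lower, and without 4-week MHCII-low replicate 3, H2-Eb1 was. In those fits 0.65% and 0.794% of all genes tested were called in either direction. Ciita in every 4-week MHCII-low library was below every 2-week one, as for 6.76% of all genes, and H2-DMb2 was above, as for 7.22%. In MHCII-high cells H2-Aa, H2-Ab1 and H2-Eb1 were lower in every 4-week library than in every 2-week one, as for 9.06% of all genes, with changes of -0.58, -0.6 and -0.77 whose intervals include 0. H2-Oa fell outside this group, at -2.25 (-4.23 to -0.27, adjusted p = 0.278).

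The size of the MHCII-high against MHCII-low difference was not called different between 4 and 2 weeks for any member. limma called 0% of all genes tested there, 987 genes had an unadjusted p under 0.05, edgeR called 0 genes, and DESeq2 called 60 with no member among them. Among members, H2-Eb1 had a difference of 1.14 (95% interval -0.84 to 3.12) and Cd74 of 0.64 (-0.33 to 1.61). For H2-Ab1 it was 0.1 (-0.8 to 1), which leaves room for a change of up to 2-fold.

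The order of replicates within a group was shared by some members and not by others. In the 2-week MHCII-low cells replicate 3 was the highest for all 5 of H2-Aa, H2-Ab1, H2-Eb1, Cd74 and Ciita, and replicate 2 the lowest for 4 of them. In each of the other 3 bleomycin groups 1 library was the highest for 4 of these 5 and 1 library the lowest for 4. H2-Oa ran the other way in both MHCII-low groups and in the 4-week MHCII-high cells, with replicate 1 the highest and replicate 3 the lowest. This order of H2-Oa rests on few reads. Its replicate 3 had 9 reads in 2-week and 11 in 4-week MHCII-low cells. In 4-week MHCII-high cells replicates 2 and 3 were nearly level, at 17.3 and 17 normalized counts (11 and 14 reads). H2-DMb2 and H2-Ob were lowest in replicate 3 of both MHCII-high groups. The genes share a library and its scale factor, so this is given as a description.

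The genes whose profile over the 14 libraries was most like a member's were found by the root-mean-square difference of centred log2 values. For H2-Aa the nearest gene was H2-Ab1 (0.31), then Cd74 (0.47), and outside the members C1qc (0.52), the chemerin receptor gene Cmklr1 (0.8) and the Ras activator gene Rasgrp1 (0.85). For Cd74 it was H2-Ab1 (0.34), then H2-Aa (0.47), and outside the members Rasgrp1 (0.7), Pax5 (0.75) and Cbfa2t3 (0.78). Pax5 was at 0 to 2.2 normalized counts in the MHCII-low and control libraries, so its likeness rests on the step between these and the MHCII-high libraries. For Ciita the nearest outside genes, Adgrg6 (0.58) and the complement receptor gene C3ar1 (0.6), lay nearer than its closest member, Cd74 (0.64), and the calcium channel gene Cacna1a followed at 0.65. H2-DMa lay 2.9 and H2-DMb1 2.38 from H2-Aa.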

How the data were processed

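RNA-seq values of 14 libraries were taken from the 1 deposited table. Its values are a signal, normalized counts: per the file headers and the values, the authors divided each library's gene counts by 1 scale factor. STAR, DESeq2 and mm10 are named in the submitters' processing notes; for the counting program, the annotation release and versions the entry is: not given in the sources used here. Values were whole multiples of 1 read within the rounding of 0.05 for 99.89% to 100% of those tested, which gave back reads. Per the labels' protocols, cDNA was amplified and no molecular identifiers are described, so the count of reads overstates independent molecules. The kits are not described as keeping strand, so overlapping genes cannot be separated. Of the 10 members, 2 have the same span in GENCODE M21 as in the deposited table, against 90.1% of 42462 genes, and coordinates printed for genes are the deposited ones. March1 and March8 were matched by gene ID.

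limma 3.58.1 (R 4.3.3) was fitted with a mean-variance trend to log2(value + 1) of all 14 libraries, 1 coefficient per group, over 17390 genes with at least 10 normalized counts in 2 libraries. Adjusted p-values are limma's unless another tool is named. Comparisons that share control libraries are not independent. edgeR 4.0.16 and DESeq2 1.42.0 on recovered reads were alternatives, beside pseudocounts, filters, scalings, covariates, a replicate block and leaving out each library. The script was tested on simulated data. All 10 members were named, with up to 3 genes per pathway list by smallest adjusted p. The other genes named (among them Irf1, the neighbours and the comparators) were chosen after their values were seen. The members and lists were chosen with earlier results of these data known. The deposited mean column differs from the mean over these 14 libraries and was left out. Some tested genes are not reported here.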

Additional observations from a re-analysis of the deposited data

How the results depend on the processing

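Depth limits the low members: H2-Ob, H2-Eb1 and H2-Oa rest on few reads in MHCII-low libraries. In the comparisons where a member was called, its sign held under every alternative run; in comparisons without a call, signs changed for some, Cd74 among them (4 against 2 weeks in MHCII-high cells, -0.5 to 0.05). In the mean of both times 8 members were called under every alternative. At 2 weeks 8 members were higher in MHCII-high cells, but 5 with no filter on low values and 5 with only the libraries of the groups compared; leaving out 1 library gave 5 to 7. At 4 weeks 8 became 4 with only the groups compared. For 2-week MHCII-low cells against control, 5 became 0 with only the groups compared, and 3 to 5 when 1 library was left out. For 4 weeks against control, 1 became 0 with library totals, the mitochondrial rRNA covariate, only the groups compared and edgeR. Library totals here were always taken without mitochondrial rRNA. The same count became 3 with DESeq2 (H2-Aa and H2-DMb1 added), and was 0 to 1 when 1 library was left out. For 4 against 2 weeks in MHCII-low cells, 0 became 0 to 2. A fit of only the groups compared has fewer samples to estimate the spread; the cause of the other changes was not tested. Same-numbered libraries correlated at 0.01 to 0.13 and not all above 0.1, so the numbers were not used as pairs, and whether they mark shared animals is not known; at 4 weeks each MHCII-high library correlated best with its own number, at 2 weeks replicates 2 and 3 did not. The replicate block gave 3 members at 4 weeks against control and 1, Cd74, lower at 4 against 2 weeks in MHCII-low cells, 6 at 2 weeks against control, with H2-Eb1 added, and 8 in each MHCII-high against MHCII-low comparison. Over all genes, DESeq2 raised the counts of calls from 499 to 1055 (2 weeks, MHCII-high against MHCII-low), 434 to 911 (4 weeks), 1254 to 2122 (mean), 332 to 665 and 8 to 74 (2 and 4 weeks against control), and 149 to 320 and 186 to 638 (4 against 2 weeks, low and high). With the covariate, 499 became 207, 1254 became 500, 332 became 213 and 8 became 2. Without the filter, 499 became 316, 434 became 282, 8 became 65 and 186 became 103. With edgeR 8 became 2 and 186 became 112, with library totals 8 became 1, with the GC trend removed 5 and with the block 16. With only the groups compared, 499 became 311, 434 became 56, 332 became 36, 149 became 15 and 186 and 8 became 0. Leaving out 1 library gave 205 to 457, 266 to 483, 856 to 1376 (mean), 127 to 307, 1 to 8, 95 to 138 and 64 to 298. For the high-minus-low difference 0 became 60 with DESeq2 and 2 without 4-week MHCII-high replicate 3. In the mean of both times 69.4% of calls were higher, 49.5% with the GC trend removed, 54.7% with TMM, 57.6% with edgeR and 87% with the covariate; at 2 weeks against control 77.7% were, 50.2% with library totals and 58.1% without the filter. Library totals without mitochondrial rRNA took the median log2 fold change of all genes from -0.09 to -0.18 at 2 weeks against control. Alternatives for the pathway genes were added after seeing the data.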
